A study of Mus musculus with 10 samples.

Results

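Peroxins, peroxisomal transporters and further peroxisomal enzymes, 34 genes in all, were read in kidneys of mice with and without a working Ehhadh gene. The genes were taken by symbol from the table of gene counts, in which all 34 of them were found among 24062 genes, and all 34 were among the 15547 genes with enough counts to be tested. They comprised 13 peroxins, which build and maintain the organelle, and 21 membrane proteins, transporters and enzymes that work in it. Ehhadh encodes the peroxisomal bifunctional enzyme of fatty acid β-oxidation and was itself not one of the 34.

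Peroxisomes have no genome and import all of their matrix proteins from the cytosol. Soluble receptors bind a short targeting signal, dock at the membrane, release the cargo inside, and are ubiquitinated and pulled out again to be reused. In the kidney, peroxisomes are most abundant in the proximal tubule, where they shorten very long and branched fatty acids, form and break down hydrogen peroxide and take part in making ether lipids.

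Polyadenylated RNA of 10 kidneys, each from 1 adult mouse, was sequenced. The groups were 4 male Ehhadh knockout animals (KO) and 4 male animals with wild-type Ehhadh (WT), both of the strain C57BL/6N, and beside them 1 animal each of 129S2_SvPasCrl and DBA_2J with wild-type Ehhadh. The labels name the knockout but not how its allele was made or which exons it removes. Values are counts per M counts of the library total after TMM scaling (CPM), fold changes are KO over WT on the log2 scale, and a gene was said to rise or fall where its Benjamini-Hochberg adjusted p was under 0.05 in edgeR's quasi-likelihood test over the 15547 genes. The labels give 1 sample title per library and no culture, litter or batch, so p-values measure the spread between these animals.

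Libraries held 41.49 to 52.3 M counts in KO, 19.79 to 35.99 M in WT, 51.19 M in 129S2_SvPasCrl and 57.25 M in DBA_2J. Ehhadh was read first as the check of the labels. It was at 282, 328, 246 and 176 CPM in KO and 3405, 2215, 2082 and 2184 CPM in WT. Each KO and WT library thus lay on the side of its label, although transcript of the gene was still counted in KO. The libraries of 129S2_SvPasCrl and DBA_2J, also with wild-type Ehhadh, were at 787 and 795 CPM. Both lay above every KO library and below every WT library. The tissue was also checked by its defining markers: 20 genes of the proximal tubule summed to 37459 to 43419 CPM in KO and 48271 to 48819 CPM in WT, 50646 CPM in 129S2_SvPasCrl and 56407 CPM in DBA_2J. Of these 20 markers 5 fell, 1 rose and 14 did not pass the test, with a median log2 fold change of −0.17. Without Kap, an androgen-dependent kidney gene that is the most abundant of them, the sums were 19696 to 22819 CPM in KO and 22612 to 24189 CPM in WT. Of 10 markers of injured tubule 7 rose and none fell, with sums of 1248 to 2107 CPM in KO and 993 to 1341 CPM in WT. The sums were 901 CPM in 129S2_SvPasCrl and 709 CPM in DBA_2J. Havcr1 was at 62.7 CPM in 129S2_SvPasCrl and 4.07 CPM in DBA_2J, against 28.9 to 75.0 CPM in KO and 1.32 to 2.43 CPM in WT. Of the others that rose, Vcam1, Krt20, Krt8, Spp1 and Anxa3 lay below every WT library in 129S2_SvPasCrl and Sox9 lay inside the WT range. All 6 principal cell markers and 4 of 6 intercalated cell markers fell. The part of these shifts in the values below was not tested. Of each genotype of C57BL/6N, 2 animals had titles that begin with E and 2 had titles that begin with a number, and what these forms mark is not stated. No leading number served for both a KO and a WT title, so whatever it marks cannot be told apart from genotype.

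The 34 genes together took 0.887% to 0.943% of all counts in the KO libraries and 1.04% to 1.09% in the WT libraries, so the groups did not overlap. Much of this came from Slc27a2 alone, with means of 4239 CPM in KO and 5275 CPM in WT. The share without it was not computed. In the test, 10 of the 34 genes fell in KO (29.4%), 1 rose (2.94%) and 23 did not pass. Over all tested genes 4.68% fell and 6.32% rose. The median log2 fold change of the 34 genes was −0.12 and that of all tested genes −0.01. It was below 0 in 27 of the 34 genes and in 51.1% of all tested genes. The falls were of modest size, from 13.5% to 32.2%, and none of the 34 genes differed 2-fold. The 2 genotypes were fully separate in 12 genes with lower values in KO, against 7.97% of all tested genes, and in 2 genes with higher values in KO, against 9.8%. Of the 23 genes that did not pass, 5 had a 95% interval that left out 0, unadjusted for the number of genes: Pex11g, Pex16, Pex19 and Mlycd below 0 and Abcd4 above it. In these whole-kidney libraries, fewer cells of a type and less RNA per cell cannot be told apart.

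**Figure D1:**
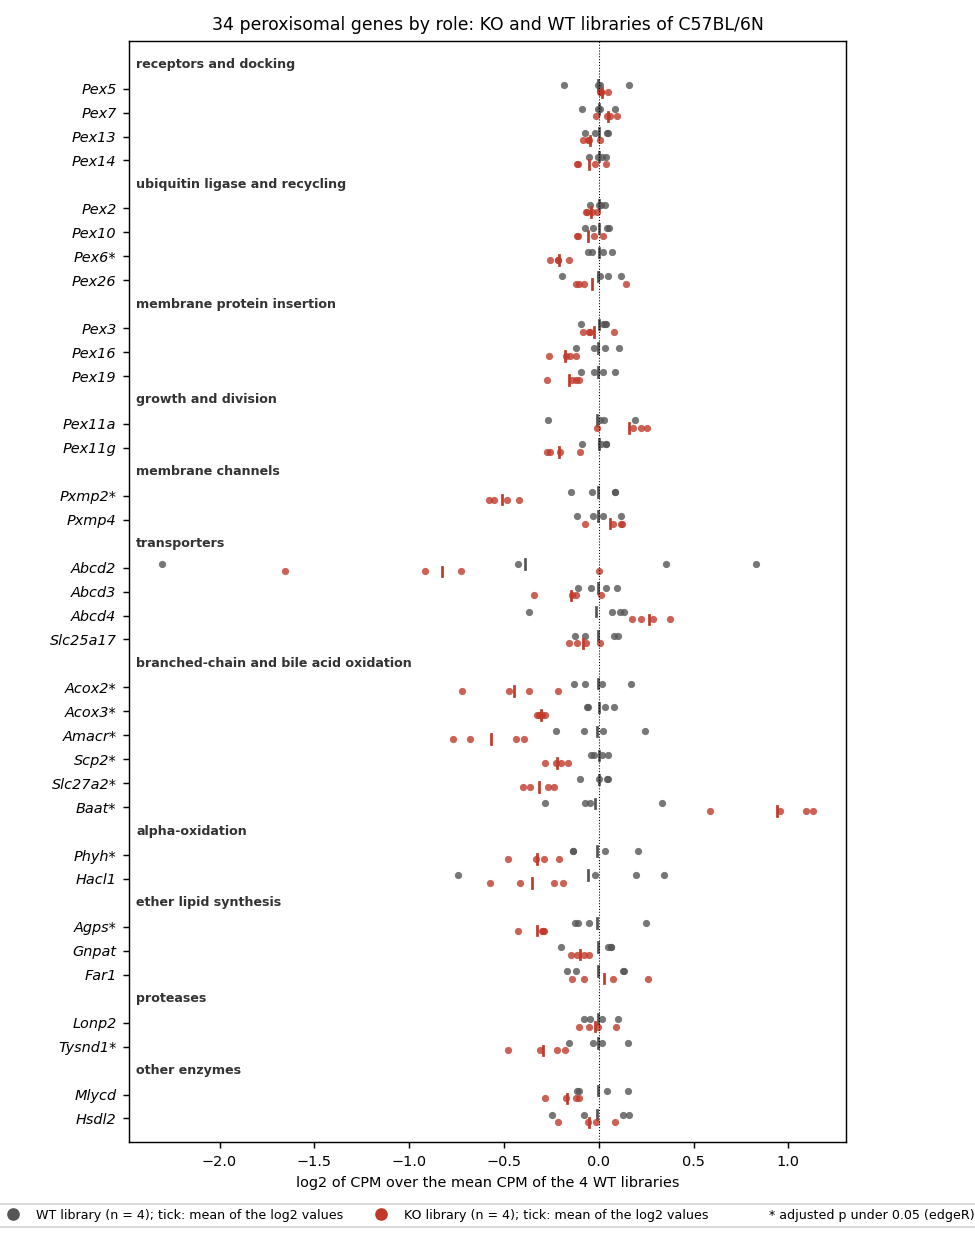
Each point is 1 library of C57BL/6N, placed on the x axis at its log2 CPM minus the log2 of the mean CPM of the 4 WT libraries, with genes grouped by role on the y axis; ticks are means over 4 libraries, and an asterisk marks an edgeR adjusted p under 0.05. The 13 peroxins have log2 fold changes between −0.21 and 0.17. Of the 6 genes of branched-chain and bile acid oxidation, 5 lie to the left, from −0.56 (Amacr) to −0.22 (Scp2), and Baat to the right. The peroxins Pex6 and Pex11g, both at −0.21, lie about as far to the left as Scp2.

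Of the 13 peroxins, 1 fell, none rose and 12 did not pass, with a median log2 fold change of −0.04 and single values between −0.21 and 0.17. Of the other 21 genes, 9 fell, 1 rose and 11 did not pass, with a median of −0.22. This difference between the sets was not tested. Per kilobase of exon, peroxins were read at 9.35 to 58.8 CPM in WT, a narrow band beside the 0.297 (Baat) to 2292 (Slc27a2) CPM per kilobase of the other 21.

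None of the receptor and docking genes passed the test. Pex5, the receptor of the targeting signal at the end of most matrix proteins, was at 119.8, 120.3, 124 and 120.4 CPM in KO and 119, 134, 120 and 105 CPM in WT (log2 fold change 0.02, SE 0.07; edgeR adjusted p = 0.901). The WT libraries spread wider than the KO libraries and enclosed all of them, and the 95% interval of the difference was −0.13 to 0.17. Pex7, the receptor of the signal at the start of a few enzymes such as phytanoyl-CoA hydroxylase and the thiolases, was at 63.4, 60.9, 64.1 and 65.8 CPM in KO and 61.2, 65.2, 57.8 and 61.6 CPM in WT (log2 fold change 0.05, SE 0.05; edgeR adjusted p = 0.638). Its groups overlapped. Pex13 at 47.3, 49.5, 46.5 and 47.4 CPM in KO and 50.8, 50.6, 46.7 and 48.5 CPM in WT, and Pex14 at 83.2, 78.3, 78.1 and 86.8 CPM and 86.7, 84.2, 85.5 and 81.6 CPM, form the docking site at the membrane. Both overlapped between groups, with log2 fold changes of −0.04 (SE 0.05) and −0.05 (SE 0.05), whose 95% intervals ran from −0.16 to 0.07 and from −0.17 to 0.07.

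Among the genes that ubiquitinate and recycle the receptors, Pex6 fell. It encodes an ATPase that pulls the used receptor from the membrane. Pex6 (chr17:46711463-46725541, plus strand, mm10) was at 116, 119.6, 119 and 124 CPM in KO and 145, 141, 133 and 135 CPM in WT. Every KO library was below every WT library, with means of 119.8 ± 3.52 CPM and 139 ± 5.55 CPM (SD, n = 4 each), 13.5% lower in KO (log2 fold change −0.21, SE 0.05; edgeR adjusted p = 0.0277). With 1 library left out, the edgeR adjusted p ran from 0.0272 to 0.0813 and stayed under 0.05 in 2 of 8 fits, those without KO replicate 4 and without WT replicate 4. Pex26, the membrane anchor of that ATPase, was at 35.6, 35.2, 36.2 and 42.3 CPM in KO and 41.5, 39.5, 33.5 and 38.4 CPM in WT (log2 fold change −0.03, SE 0.08; edgeR adjusted p = 0.856). KO replicate 4 was the highest of the 8 libraries, and the groups overlapped. Pex2 and Pex10, which encode RING subunits of the receptor ubiquitin ligase, had log2 fold changes of −0.04 (SE 0.05) and −0.06 (SE 0.07). Pex2 was at 51.7, 53.8, 51.9 and 52.8 CPM in KO and 52.4, 55.4, 54.5 and 54.2 CPM in WT (edgeR adjusted p = 0.64). Its groups overlapped, and the relative spread of its WT libraries was the smallest of the 34 genes. Pex10 was read at 15.2 to 16.7 CPM in KO and 15.6 to 17.1 CPM in WT.

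The genes for membrane protein insertion and for growth of the organelle did not pass the test. Pex16, which brings Pex3 to the membrane, was at 56.3, 54.4, 55.1 and 51.0 CPM in KO and 65.9, 60.3, 62.7 and 56.3 CPM in WT (log2 fold change −0.18, SE 0.06; edgeR adjusted p = 0.0997). Only the highest KO library and the lowest WT library touched, at 56.34 and 56.3 CPM. Pex19, the cytosolic chaperone and receptor of peroxisomal membrane proteins, was at 110, 111, 100.2 and 113 CPM in KO and 129, 123, 119 and 114 CPM in WT (log2 fold change −0.16, SE 0.06; edgeR adjusted p = 0.127). Its groups did not overlap, although the closest libraries were 112.8 and 113.7 CPM. Pex3, the docking protein of Pex19, was at 27.0 to 30.2 CPM in KO and 26.7 to 29.3 CPM in WT, with a log2 fold change of −0.02 (SE 0.06). Of its exonic bases 9.81% are shared with Adat2, so its counts can hold reads of that gene. Pex11g, which acts in elongation and division of peroxisomes, was at 19.2, 19.9, 19.0 and 21.4 CPM in KO and 23.5, 23.1, 23.6 and 21.6 CPM in WT (log2 fold change −0.21, SE 0.07; edgeR adjusted p = 0.0792). Here too the groups did not overlap, by 21.4 against 21.6 CPM. Its relative Pex11a was at 58.5, 61.6, 51.4 and 60.3 CPM in KO and 52.8, 43.0, 52.0 and 59.1 CPM in WT (log2 fold change 0.17, SE 0.09; edgeR adjusted p = 0.293). The log2 fold change of Pex11a was 0.01 in the title form with a leading E and 0.33 in the other, where a fit of those 4 libraries alone called it higher. The edgeR adjusted p of that difference between forms was 0.761.

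Of the membrane proteins, Pxmp2 fell and had the smallest p of the 34 genes. Pxmp2, which forms a channel for small solutes in the peroxisomal membrane (chr5:110274286-110286168, minus strand), was at 41.6, 43.3, 38.9 and 39.6 CPM in KO and 56.6, 61.5, 61.6 and 52.4 CPM in WT. The 4 KO libraries lay close together and well under the WT libraries, with means of 40.8 ± 1.98 CPM and 58.0 ± 4.45 CPM (SD, n = 4 each), 29.6% lower in KO (log2 fold change −0.51, SE 0.07; edgeR adjusted p = 0.00104). It fell in each of the 8 fits with 1 library left out, with adjusted p of 0.000735 to 0.00534 in edgeR. Pxmp4, another integral membrane protein, was at 207, 200.5, 181 and 207 CPM in KO and 207, 176, 193 and 186 CPM in WT (log2 fold change 0.06, SE 0.07; edgeR adjusted p = 0.619). Its groups overlapped, and its 95% interval, −0.09 to 0.21, left out a fall as large as that of Pxmp2. Per kilobase, Pxmp4 was the more abundant of the pair in WT, at 129.8 against 56.9 CPM.

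None of the 4 transporter genes passed the test. Abcd3, an ABC transporter that carries branched-chain acyl-CoAs, bile acid precursors and dicarboxylic acids into the peroxisome, was at 631, 692, 541 and 623 CPM in KO and 734, 637, 668 and 705 CPM in WT (log2 fold change −0.14, SE 0.08; edgeR adjusted p = 0.295). The groups overlapped, with KO replicate 3 the lowest of the 8 libraries. Slc25a17, a carrier of coenzyme A and other cofactors, was at 131.5 to 147 CPM in KO and 135 to 158 CPM in WT, with a log2 fold change of −0.08 (SE 0.07). Abcd4, named for its relatives but known as a lysosomal transporter of cobalamin, was at 59.7, 61.7, 68.8 and 64.7 CPM in KO and 58.1, 57.1, 55.6 and 41.0 CPM in WT (log2 fold change 0.27, SE 0.10; edgeR adjusted p = 0.119). Each KO library was above each WT library, and WT replicate 4 lay far under the other WT libraries.

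Abcd2, which carries very long and polyunsaturated acyl-CoAs and is known for its expression in fat, was near the floor of the data and varied most. It was at 2.03, 1.07, 1.23 and 0.645 CPM in KO, from 34 to 103 counts, and 2.60, 0.411, 1.51 and 3.60 CPM in WT, from 13 to 114 counts (log2 fold change −0.69, SE 0.52; edgeR adjusted p = 0.454). The WT libraries alone spanned both extremes, and the 95% interval of the difference was −1.84 to 0.47. The log2 fold change was −1.45 within the title form with a leading E and 0.16 within the other. The sum of 5 adipocyte markers (Adipoq, Plin1, Cfd, Lep and Cidec) ran from 35.6 to 137 CPM in KO and 25.2 to 120 CPM in WT, and was 16.2 CPM in 129S2_SvPasCrl and 16.4 CPM in DBA_2J. None of these 5 genes passed the test between genotypes. Over the 10 libraries Abcd2 and this sum had Pearson's r = 0.717 (permutation p = 0.0166) and Spearman's rho = 0.758 (permutation p = 0.0146), each two-sided with 100000 resamples. This was the single relation computed and was chosen after the values were seen. The permutations moved values over all 10 libraries without regard to genotype or strain. Both strain libraries were at the low end of both values, so a difference between strains can enter r, rho and their p-values. Without the 2 libraries farthest from the median sum, KO replicate 1 and WT replicate 4, r was 0.545 over 8 libraries (permutation p = 0.163), so the relation did not pass 0.05 without them, with fewer libraries and a narrower range. With 4 libraries in a genotype, no value within a genotype was computed.

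**Figure D2:**
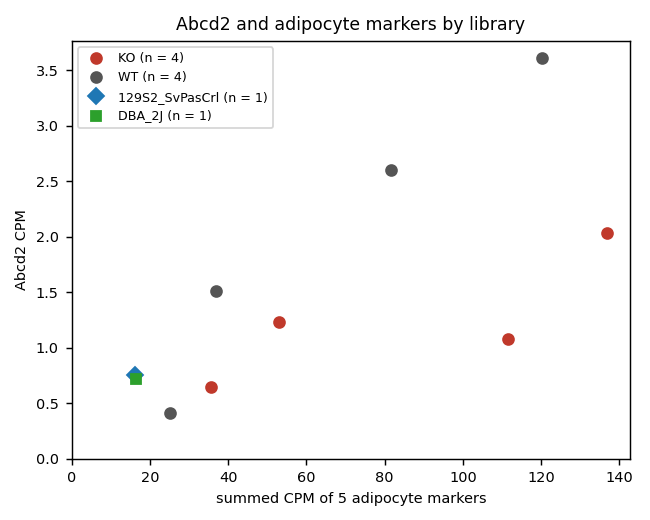
Each point is 1 library, with the summed CPM of 5 adipocyte markers on the x axis and Abcd2 CPM on the y axis. The KO and WT libraries both spread widely on the x axis. On the y axis, Abcd2 ran from 0.645 to 2.03 CPM in KO and from 0.411 to 3.60 CPM in WT. The 2 single libraries of the other strains sit together at the low end, at 0.751 and 0.718 CPM of Abcd2.

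All 6 genes listed here under branched-chain and bile acid oxidation passed the test, with a median log2 fold change of −0.31. Acox2, Acox3, Amacr, Scp2 and Slc27a2 fell, and Baat rose. In this pathway Slc27a2 activates the acid to its coenzyme A ester, Amacr turns the ester into the isomer that the oxidases accept, Acox2 and Acox3 carry out the first oxidation, and the thiolase encoded by Scp2 cleaves the chain. Baat joins finished bile acids to an amino acid. The list holds no gene for the steps between the first oxidation and the cleavage, and it was drawn with earlier results known. Hsd17b4, read in the list of straight-chain β-oxidation and auxiliary genes, did not pass (log2 fold change −0.03, SE 0.07; edgeR adjusted p = 0.846). The summed level of the 6 genes was 5252 to 5841 CPM in KO and 6556 to 7099 CPM in WT, most of it from Slc27a2.

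Slc27a2 was the most abundant of the 34 genes per kilobase, at 2292 CPM per kilobase in WT. It encodes a fatty acid transport protein and acyl-CoA synthetase for very long and branched acids (chr2:126553024-126588243, plus strand). The KO libraries were at 4004, 4096, 4382 and 4474 CPM and the WT libraries at 5287, 5446, 4921 and 5445 CPM. All KO libraries were under all WT libraries, with means of 4239 ± 225 CPM and 5275 ± 247 CPM (SD, n = 4 each), 19.6% lower (log2 fold change −0.32, SE 0.06; edgeR adjusted p = 0.0108). Acox3, a peroxisomal oxidase of branched-chain acyl-CoAs (chr5:35583060-35613801, plus strand), was at 281, 278, 277 and 284 CPM in KO and 355, 366, 332 and 333 CPM in WT. Its 4 KO libraries lay close together and under the lowest WT library, 19.1% lower (log2 fold change −0.31, SE 0.05; edgeR adjusted p = 0.00464). Acox3 shares 6.07% of its exonic bases with 4931431C16Rik, so its counts can hold reads of that gene too.

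The starts of these genes are shown because both fell in each of the 8 fits with 1 library left out. The windows hold 250 bases before and 50 after the RefSeq start, read on the gene's strand in GRCm38.p6, and capitals mark the GC box GGGCGG on either strand. For Slc27a2 the window is chr2:126552774-126553073 on the plus strand, and for Acox3 it is chr5:35582784-35583083 on the plus strand, whose start lies 26 bases before that of the counted gene.
Slc27a2: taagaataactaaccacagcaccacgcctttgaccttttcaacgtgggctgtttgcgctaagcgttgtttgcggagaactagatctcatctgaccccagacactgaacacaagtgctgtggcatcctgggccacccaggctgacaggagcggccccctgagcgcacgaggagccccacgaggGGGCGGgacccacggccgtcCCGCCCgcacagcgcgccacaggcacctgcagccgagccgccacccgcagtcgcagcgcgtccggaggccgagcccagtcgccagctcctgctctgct
Acox3: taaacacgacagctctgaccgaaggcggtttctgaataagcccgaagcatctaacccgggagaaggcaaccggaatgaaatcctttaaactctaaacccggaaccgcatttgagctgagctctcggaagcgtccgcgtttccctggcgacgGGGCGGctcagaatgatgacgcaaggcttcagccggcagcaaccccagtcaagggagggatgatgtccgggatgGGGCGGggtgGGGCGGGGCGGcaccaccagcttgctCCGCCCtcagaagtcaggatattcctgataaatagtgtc
Acox3 holds 5 GC boxes, the pair at −15 and −10 overlapping by 1 base, and Slc27a2 holds 2. Windows were found for 27 of the 34 genes, 8 of them among the 10 that fell. A GC box stood in 21 of the 27 and in 35.7% of 32851 windows of all genes. The median GC content of the 27 was 59.3% against 52.7% for all windows. The 27 windows belong to genes with enough counts to be tested, while the 32851 were not chosen by counts. Shares and medians were thus drawn from unlike sets and were not tested against each other. The CCAAT box, searched as CCAAT on either strand, stood in 10 of the 27 windows (37.4% of all windows). TATAAA stood in 3, of Pex14, Pex16 and Pex26 (13.6% of all windows), and the palindrome CACGTG in 1, of Gnpat (7.15%). A direct repeat of AGGTCA spaced by 1 base, the form bound by PPAR and RXR, was searched on both strands with up to 2 mismatches. It had no match in the 27 windows (3.86% of all windows). At so low a share, 27 windows are too few to tell its absence from the background. Sequence beyond the windows was not searched.

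Amacr, the racemase of 2-methyl-branched acyl-CoAs and bile acid intermediates (chr15:10981756-10996624, plus strand), had the largest fall. It was at 170.2, 181, 221 and 214 CPM in KO and 248, 274, 294 and 343 CPM in WT. The highest KO library stayed under the lowest WT library, with means of 197 ± 24.7 CPM and 290.0 ± 40.3 CPM (SD, n = 4 each), 32.2% lower (log2 fold change −0.56, SE 0.11; edgeR adjusted p = 0.008). Acox2, the oxidase that starts the shortening of the bile acid side chain (chr14:8225511-8259019, minus strand), was at 96.3, 89.6, 75.6 and 107 CPM in KO and 139.9, 118, 126 and 114 CPM in WT. The groups came near each other, at 107 and 114 CPM, and the mean was 25.9% lower in KO (log2 fold change −0.43, SE 0.10; edgeR adjusted p = 0.0215). Scp2, which encodes the thiolase and the sterol carrier protein (chr4:108043830-108118547, minus strand), was at 700.3, 743, 728 and 760.3 CPM in KO and 836, 828, 882 and 863 CPM in WT. Its groups were separate with little spread in either, and it was 13.9% lower in KO (log2 fold change −0.22, SE 0.05; edgeR adjusted p = 0.0265). Gene totals do not tell apart the long and short Scp2 transcripts.

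Baat, bile acid-CoA:amino acid N-acyltransferase (chr4:49489418-49506558, minus strand), is a liver enzyme and was the least abundant of the 34 genes per kilobase. It was at 0.868, 1.26, 1.12 and 1.23 CPM in KO and 0.560, 0.727, 0.549 and 0.474 CPM in WT, from 44 to 65 counts in KO libraries and from 11 to 23 in WT libraries. All KO libraries were above all WT libraries (log2 fold change 0.95, SE 0.27; edgeR adjusted p = 0.0427), a level 1.93 times that of WT. Its call was lost without any filter on low counts, with all 10 libraries in the fit, with libraries thinned to the smallest total, and in 7 of 8 fits with 1 library left out (adjusted p of 0.0457 to 0.112 in edgeR). Of 4 hepatocyte markers none passed the test, and their sum was 171 to 248 CPM in KO and 150 to 259 CPM in WT.

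**Figure D3:**
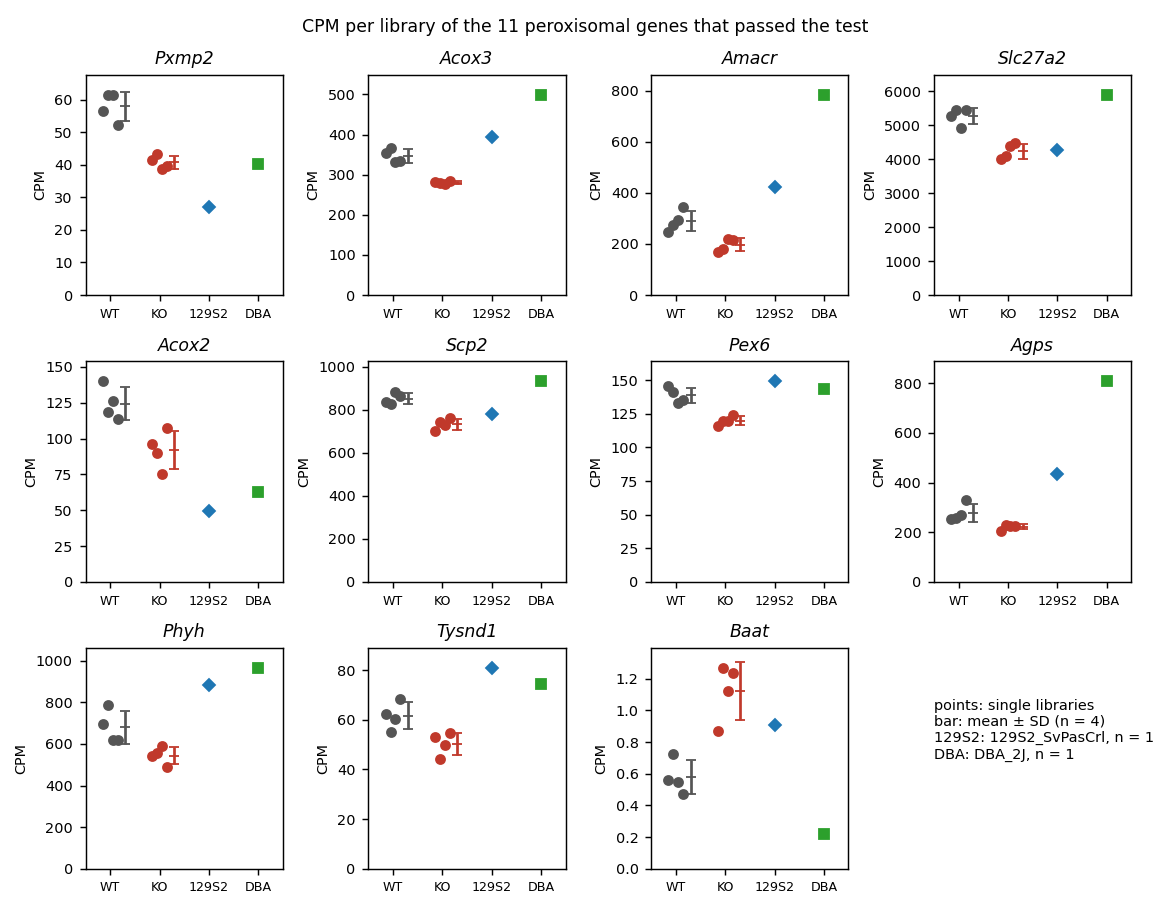
CPM of the 11 genes that passed the test, 1 panel each with its own y axis from 0; points are single libraries, bars are mean ± SD of 4 libraries, and the strains 129S2_SvPasCrl and DBA_2J have 1 library each. KO points lie under all WT points in 10 panels and above them for Baat, while the other strains lie on either side of WT, for example at 27.1 CPM for Pxmp2 in 129S2_SvPasCrl, below WT, and at 785 CPM for Amacr in DBA_2J, above it.

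Phytanic acid, whose methyl branch blocks β-oxidation, is first shortened by α-oxidation. Phyh, phytanoyl-CoA hydroxylase (chr2:4918996-4938743, plus strand), was at 541, 557, 588 and 489 CPM in KO and 697, 786, 619.9 and 620.1 CPM in WT. Every KO library was below every WT library, and WT replicate 2 was the highest, with means of 544 ± 41.4 CPM and 681 ± 79.2 CPM (SD, n = 4 each), 20.1% lower (log2 fold change −0.32, SE 0.09; edgeR adjusted p = 0.0383). Hacl1, the lyase that follows it, was at 79.0, 89.6, 71.1 and 92.6 CPM in KO and 134, 104, 121 and 63.1 CPM in WT (log2 fold change −0.34, SE 0.19; edgeR adjusted p = 0.274). WT replicate 4 was the lowest of the 8 libraries and made the groups overlap. Without that library Hacl1 was lower in KO with a log2 fold change of −0.53 (edgeR adjusted p = 0.0125). Phyh kept its call in 2 of 8 fits with 1 library left out, those without KO replicate 3 and without WT replicate 4 (adjusted p of 0.0337 to 0.096 in edgeR over the 8).

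Ether lipid synthesis begins in the peroxisome, and Agps, alkylglycerone-phosphate synthase, which puts in the ether bond, was the gene of this group that fell (chr2:75832177-75931350, plus strand). It was at 206, 228, 226 and 225 CPM in KO and 255, 257, 268 and 329.9 CPM in WT. KO libraries were under all WT libraries, with WT replicate 4 well above the rest, and the mean was 20.2% lower in KO (log2 fold change −0.33, SE 0.08; edgeR adjusted p = 0.0293). Gnpat, whose product acylates dihydroxyacetone phosphate in the step before, was at 94.7, 99.5, 97.0 and 101 CPM in KO and 110, 109.9, 91.6 and 108 CPM in WT (log2 fold change −0.10, SE 0.07; edgeR adjusted p = 0.401). WT replicate 3 was the lowest of the 8 libraries, while the other WT libraries lay above all KO libraries. Far1, the reductase that supplies the fatty alcohol, was at 142, 149, 165 and 188 CPM in KO and 139.9, 144, 171 and 172 CPM in WT (log2 fold change 0.04, SE 0.10; edgeR adjusted p = 0.859), and its groups overlapped.

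Of the peroxisomal proteases, Tysnd1 fell and Lonp2 did not pass. Tysnd1 cleaves the targeting signal from imported enzymes and processes several enzymes of β-oxidation (chr10:61695514-61702773, plus strand), and was at 52.9, 44.3, 49.7 and 54.5 CPM in KO and 62.4, 55.2, 60.4 and 68.5 CPM in WT. The groups were separate by 54.5 against 55.2 CPM, with means of 50.3 ± 4.50 CPM and 61.6 ± 5.49 CPM (SD, n = 4 each), 18.3% lower (log2 fold change −0.29, SE 0.08; edgeR adjusted p = 0.042). Lonp2, the Lon-type protease, was at 199, 206, 193 and 221 CPM in KO and 222, 200.3, 196 and 209.8 CPM in WT (log2 fold change −0.01, SE 0.06; edgeR adjusted p = 0.913), and its groups overlapped. Its 95% interval of −0.15 to 0.12 left out a fall as large as the estimate for Tysnd1. Mlycd, malonyl-CoA decarboxylase, was at 116, 120.4, 122 and 108 CPM in KO and 135, 121, 122 and 146 CPM in WT (log2 fold change −0.17, SE 0.07; edgeR adjusted p = 0.169). Hsdl2, a short-chain dehydrogenase-like protein, was at 151, 162, 132 and 147 CPM in KO and 171, 129, 145 and 167 CPM in WT (log2 fold change −0.05, SE 0.10; edgeR adjusted p = 0.81). Both overlapped between the groups.

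The calls differed in how much they rested on single libraries. Pxmp2, Acox3, Amacr and Slc27a2 fell in each of 8 fits with 1 library left out, Acox2 in 5, Agps in 4, and Pex6, Scp2, Phyh and Tysnd1 in 2 each. The number of the 34 genes called in either direction in these fits was 4 to 9. Without KO replicate 2, and likewise without WT replicate 3, 4 genes were called, and without KO replicate 1 or WT replicate 1 there were 5. Within the 2 title forms, all 10 genes that fell had log2 fold changes below 0. These ran from −0.55 (Amacr) to −0.14 (Pex6) with a leading E and from −0.57 (Amacr) to −0.20 (Scp2) without. In each of these genes every KO library lay below every WT library, so the direction within either form was given in advance. A test of whether the KO and WT difference itself varied with the title form called 0% of 15547 genes in edgeR, with 1004 genes and none of the 34 under an unadjusted p of 0.05. In the 4 libraries with a leading E alone, edgeR called none of the 34 genes, with 51 lower and 92 higher over all genes, and in the 4 without it 9 of the 34, 7 of them among the 11 above, with 799 lower and 924 higher over all genes.

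**Figure D4:**
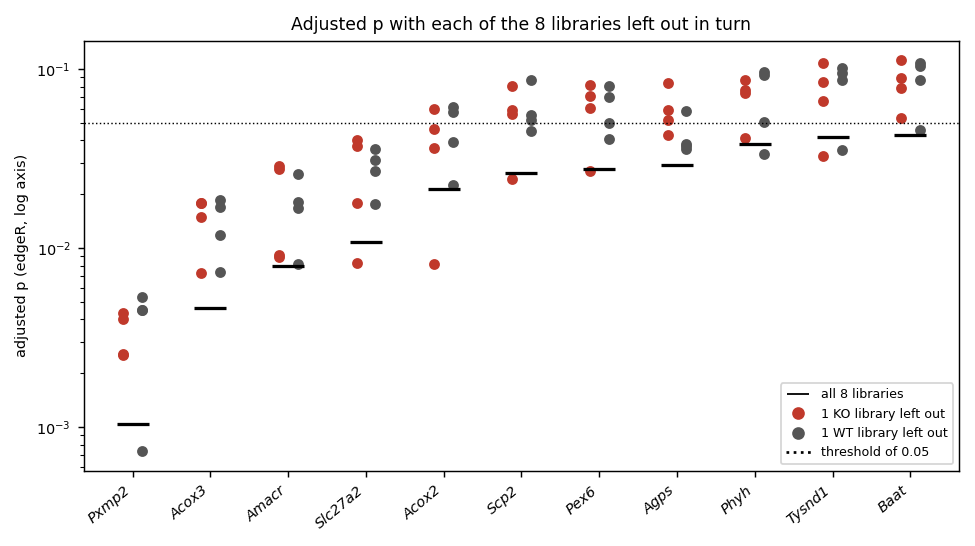
Adjusted p from edgeR (y axis, log scale) of the 11 genes that passed the test, with black bars for the fit of all 8 libraries and points for fits with 1 KO or 1 WT library left out; the dotted line is 0.05. All points of Pxmp2, Acox3, Amacr and Slc27a2 lie under the line, and for Baat only 1 of 8 does.

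Other genes of the peroxisome were read from lists of 74 symbols, of which 72 were in the table and 68 were tested. Of these, 9 fell, 2 rose and 57 did not pass, with a median log2 fold change of −0.07. In the list of straight-chain β-oxidation and auxiliary genes, 4 of 24 fell and none rose (median −0.18). Eci3, an enoyl-CoA isomerase (−0.57, SE 0.10), and Acot12, an acyl-CoA thioesterase (−0.20, SE 0.06), fell. So did Acaa1a and Acaa1b, the thiolases (−0.38, SE 0.09, and −0.46, SE 0.12). Of 12 oxidases and antioxidant genes 3 fell: Gstk1, a glutathione transferase (−0.39, SE 0.07), Prdx5, a peroxiredoxin (−0.24, SE 0.07), and Sod1, a superoxide dismutase (−0.22, SE 0.06). Of 15 other matrix enzymes Grhpr, glyoxylate reductase (−0.27, SE 0.07), and Dhrs4, a carbonyl reductase (−0.24, SE 0.07), fell. Of the 6 remaining peroxins and biogenesis genes, Trim37, a ubiquitin ligase, rose (0.23, SE 0.07). Of 11 genes listed under division, contacts and membrane, Mpv17, which encodes a membrane protein related to that of Pxmp2, rose (0.29, SE 0.06). The place of the Mpv17 protein in the peroxisome rests on the list alone and was not tested. Gstk1, Eci3 and Mpv17 were called in all 8 fits with 1 library left out and Acaa1a in 7, while Acot12 and Sod1 were called in none of them, Trim37, Prdx5, Grhpr and Dhrs4 in 1, and Acaa1b in 2.

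The single libraries of the other strains were compared with the 4 WT libraries by size alone, as 1 animal allows no test. A gene was counted where it differed 2-fold from the WT mean in log2 CPM and lay outside the WT range. In 129S2_SvPasCrl, 5 of the 34 genes were lower (14.7%) and none higher, against 6.15% and 5.14% of 16903 genes. In DBA_2J, 3 were lower and 3 higher (8.82% each), against 8.67% and 5.99%, but the lower count was 6 without WT replicate 2. With 1 library a strain, the strain and the single animal cannot be told apart.

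Hsdl2 and Hacl1 were lower in both strains, although neither passed the test between KO and WT. Hsdl2 was at 58.4 CPM in 129S2_SvPasCrl and 48.8 CPM in DBA_2J, against 129 to 171 CPM in WT (log2 differences −1.38 and −1.64). Hacl1 was at 24.9 CPM and 39.1 CPM, against 63.1 to 134 CPM in WT (−2.03 and −1.37). These were lower than every KO library as well. Their start windows are shown for this shared direction, with capitals for the GC box and, in Hacl1, for 1 CCAAT box read on the other strand as ATTGG. The Hacl1 window is chr14:31640916-31641215 on the minus strand and the Hsdl2 window chr4:59581313-59581612 on the plus strand, both of the C57BL/6 reference sequence of GRCm38.p6, not of the other strains.
Hacl1: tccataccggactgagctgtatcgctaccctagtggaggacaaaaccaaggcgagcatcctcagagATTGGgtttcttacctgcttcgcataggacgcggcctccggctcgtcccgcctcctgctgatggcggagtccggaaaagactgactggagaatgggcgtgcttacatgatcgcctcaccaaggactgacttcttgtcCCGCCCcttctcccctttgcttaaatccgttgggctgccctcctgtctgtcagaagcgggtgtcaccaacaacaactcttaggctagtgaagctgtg
Hsdl2: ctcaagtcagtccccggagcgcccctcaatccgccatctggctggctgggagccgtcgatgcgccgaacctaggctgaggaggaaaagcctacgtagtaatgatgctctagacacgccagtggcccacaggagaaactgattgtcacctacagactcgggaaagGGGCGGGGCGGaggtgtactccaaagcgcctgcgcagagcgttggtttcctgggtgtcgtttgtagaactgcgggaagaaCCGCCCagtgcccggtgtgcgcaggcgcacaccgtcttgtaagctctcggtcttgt
Hacl1 holds 1 GC box on the other strand, and Hsdl2 holds 3, of which the pair at −86 and −81 overlaps by 1 base.

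The genes that were higher in DBA_2J included 2 of the 3 genes of ether lipid synthesis. Agps was at 807 CPM in DBA_2J and 436 CPM in 129S2_SvPasCrl, against 255 to 330 CPM in WT (log2 differences 1.55 and 0.66). Far1 was at 417 CPM and 300.1 CPM, against 139.9 to 172 CPM (1.42 and 0.94), and Gnpat at 158 CPM and 114 CPM, against 91.6 to 110 CPM (0.60 and 0.13). In each of the 3 genes DBA_2J was above 129S2_SvPasCrl, and both were above every WT library. Amacr was the other gene that was higher in DBA_2J, at 785 CPM, with 424 CPM in 129S2_SvPasCrl, against 248 to 343 CPM in WT (1.45 and 0.56). Of the 10 genes that fell in KO, both strain libraries lay above every WT library in 5 (Acox3, Amacr, Phyh, Agps and Tysnd1) and below every WT library in 2 (Pxmp2 and Acox2), and the other 3 (Pex6, Scp2 and Slc27a2) did neither.

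Acox2, Pxmp2 and Pex11a were lower in 129S2_SvPasCrl, with differences under 2-fold in DBA_2J. Acox2 was at 49.1 CPM in 129S2_SvPasCrl and 62.5 CPM in DBA_2J, against 114 to 139.9 CPM in WT (−1.34 and −0.99). Pxmp2 was at 27.1 CPM and 40.4 CPM, against 52.4 to 61.6 CPM (−1.09 and −0.52), and Pex11a at 23.8 CPM and 26.0 CPM, against 43.0 to 59.1 CPM (−1.11 and −0.98). Baat was lower in DBA_2J at 0.221 CPM and 12 counts, against 0.474 to 0.727 CPM in WT (−1.20), and was at 0.908 CPM in 129S2_SvPasCrl. The 4 hepatocyte markers summed to 9.68 CPM in DBA_2J and 227 CPM in 129S2_SvPasCrl. Slc27a2 and Scp2 differed less from WT but lay below every WT library in 129S2_SvPasCrl and above every WT library in DBA_2J. Slc27a2 was at 4274 CPM in 129S2_SvPasCrl and 5906 CPM in DBA_2J, against 4921 to 5446 CPM in WT (−0.30 and 0.16). Scp2 was at 779 CPM and 932 CPM, against 828 to 882 CPM in WT (−0.13 and 0.13).

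**Figure D5:**
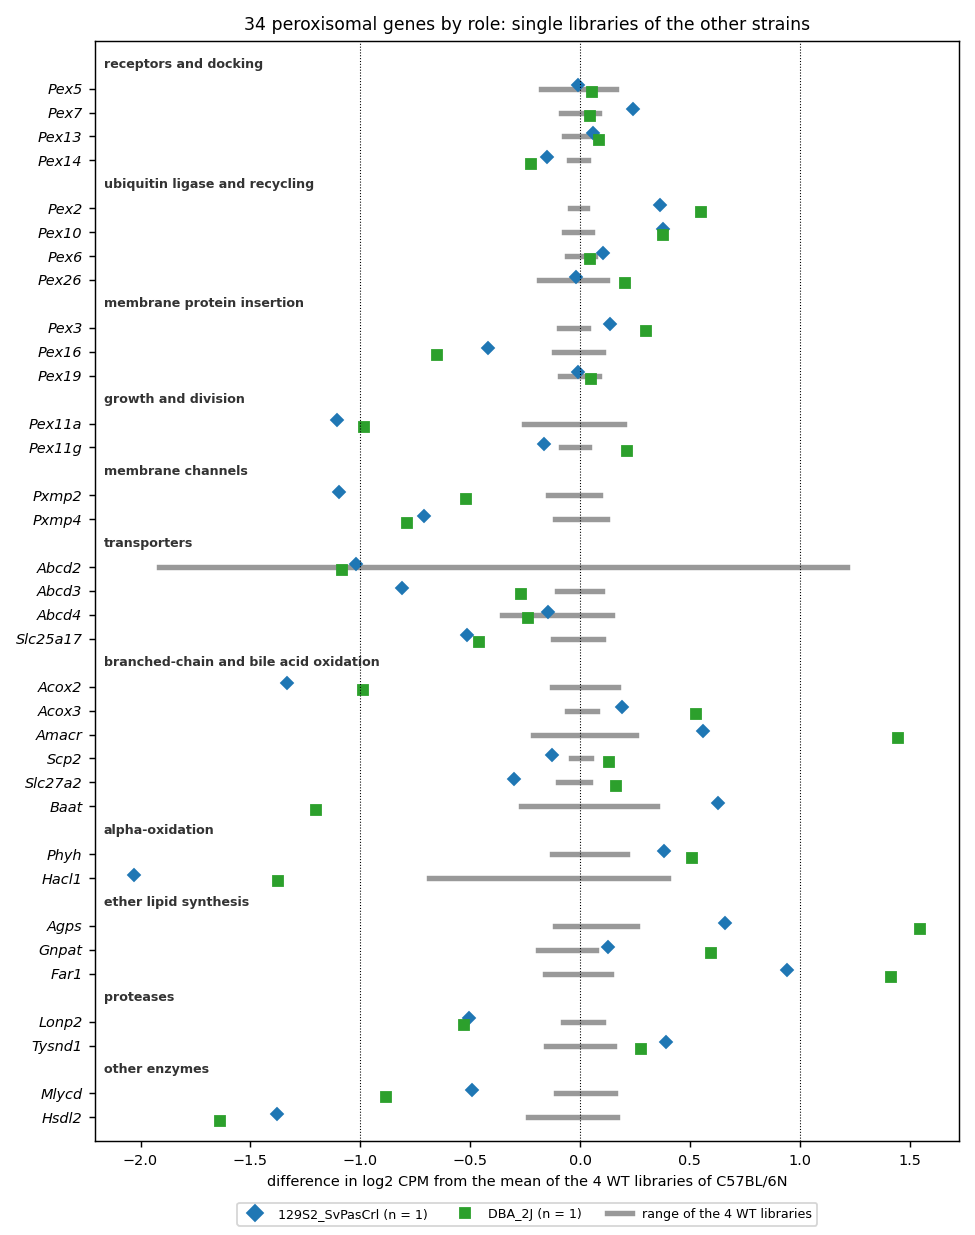
Difference in log2 CPM between the single library of each other strain and the mean of the 4 WT libraries of C57BL/6N (x axis) for the 34 genes by role (y axis); grey bars are the range of the WT libraries and dotted lines mark 2-fold. Hacl1 and Hsdl2 lie beyond the left line in both strains, and Amacr, Agps and Far1 beyond the right line in DBA_2J.

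Of the 13 peroxins, Pex11a was the one past 2-fold in a strain library. Pex2 was at 69.5 CPM in 129S2_SvPasCrl and 79.3 CPM in DBA_2J, above its 52.4 to 55.4 CPM in WT. Pex16 was at 45.7 CPM and 38.9 CPM, below its 56.3 to 65.9 CPM in WT. Pex6, which fell in KO, was at 149 CPM and 143 CPM, above at least 3 of the 4 WT libraries. Genes of other roles that came nearest to the 2-fold limit were Mlycd (−0.49 in 129S2_SvPasCrl and −0.88 in DBA_2J), Abcd3 (−0.81 and −0.27) and Pxmp4 (−0.71 and −0.79), while Abcd2 passed it (−1.02 and −1.08) but lay inside the WT range. Over all 34 genes the median log2 difference from WT was −0.07 in 129S2_SvPasCrl and 0.05 in DBA_2J, against 0.01 and −0.02 over all genes.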

How the data were processed

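Per the labels' protocols, polyadenylated RNA was sequenced in 100-nucleotide single-end reads. Per the submitters' processing notes, STAR, featureCounts and edgeR were used with mm10 (GRCm38). Reads were counted by featureCounts 1.5.2, per the file headers, as primary alignments on exons of UCSC mm10 genes, without regard to strand and with reads over several genes counted for each. The authors deposited raw counts per library, a joined count matrix (equal to the single tables in 10 of 10 columns) and a table of normalized log2 values for 13645 genes, all 34 genes among them, with no filter stated.

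The deposited counts of the 4 KO and 4 WT libraries were tested on genotype alone in edgeR 4.0.16 (R 4.3.3; filterByExpr, TMM, glmQLFit, glmQLFTest) with Benjamini-Hochberg adjustment over 15547 genes and calls under 0.05; the biological coefficient of variation was 12.3%. The code was tested on simulated data. CPM used TMM scaling over all 10 libraries. Strain libraries were compared by log2 CPM (prior count 2). Depth ran from 19.79 to 57.25 M counts, so precision was lowest for Abcd2 and Baat, with 11 or more counts per C57BL/6N library; every other gene of the 34 had 307 or more. Replicate numbers are names in accession order and do not pair animals. Every pair of replicates differed beyond counting noise (lowest chi-square over its degrees of freedom 11.0). Genes named with full values are those called, the 2 with the smallest p of each role and those past 2-fold in a strain; Pex5, Pex13, Pex26 and Abcd2 were given in full beside these, chosen after their values were seen; up to 4 called genes are named from each list of other peroxisomal genes. The genes and lists were chosen with earlier results of these data known. Alternatives were RLE scaling, no filter, DESeq2 1.42.0, limma 3.58.1 on the deposited log2 values, title form as a term or each form alone, thinned libraries, all 10 libraries in the fit, and each library left out. RefSeq windows came from GRCm38.p6.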

Additional observations from a re-analysis of the deposited data

Results flagged for a closer look

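In 8 of the 92 groups of 4 libraries examined, 1 library lay far from the other 3 by Dixon's 95% limit, where chance flags about 5% of groups. Among the peroxins, Pex3 was at 26.71 CPM in WT replicate 4 (29.01 to 29.26 in the others), Pex5 at 123.6 CPM in KO replicate 3 (119.8 to 120.4) and Pex26 at 42.27 CPM in KO replicate 4 (35.21 to 36.24). Abcd4 was at 41 CPM in WT replicate 4 (55.63 to 58.07). In ether lipid synthesis, Agps was at 206.3 CPM in KO replicate 1 (225.4 to 227.5) and Gnpat at 91.62 CPM in WT replicate 3 (108.4 to 110). Outside the 34 genes, Ehhadh was at 3405 CPM in WT replicate 1 (2082 to 2215) and Sod1 at 501.3 CPM in KO replicate 4 (562.4 to 571.3). Without WT replicate 4 the log2 fold change of Abcd4 was 0.16. The call of Agps was lost without KO replicate 1, but also without KO replicate 2, KO replicate 3 or WT replicate 3, which were not flagged for it.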

How the results depend on the processing

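With RLE scaling, DESeq2, limma on the deposited log2 values, or title form as a term, the same 11 of the 34 genes were called in the same direction. Agps and Baat were lost when libraries were thinned to the smallest total, and Baat alone without a filter on low counts and with all 10 libraries in the fit, which left 0 genes called higher in these 3 settings. The 4 libraries with a leading E alone gave 0 genes lower and 0 higher of the 34, and 51 lower and 92 higher over all genes. The 4 without it lost Agps, Baat, Scp2 and Tysnd1 and gained Hacl1 and Pex11a. With each library left out in turn, 4 to 9 of the 34 genes were lower and 0 to 1 higher, and 381 to 722 genes were lower and 610 to 916 higher over the table. Thinning left 1 gene with no overlap and higher values in KO. Genes past 2-fold lower in DBA_2J numbered 3 to 6 as WT libraries were left out, with 6 without WT replicate 2. Scalings for the overlap counts, RLE over 10 libraries and TMM over 8, were added after the data were seen and changed nothing.

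Sign changes occurred in uncalled genes. Without a leading E the log2 fold change was −0.075 for Pex5, −0.025 for Pex7, 0.16 for Abcd2 and 0.070 for Hsdl2, and with it 0.13 for Pex26, 0.0058 for Slc25a17 and 0.026 for Lonp2. Leaving out 1 library gave −0.037 to 0.081 for Pex5, −0.094 to 0.014 for Pex26, −0.043 to 0.092 for Far1, −0.050 to 0.026 for Lonp2 and −0.12 to 0.016 for Hsdl2. The cause was not tested. No paired analysis was possible because the replicate numbers only follow accession order. Depth limits Abcd2 and Baat.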

Other observations

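Markers of other cell types were read beside the 34 genes. Of 5 thick ascending limb markers 2 fell, of 4 distal convoluted tubule markers 2, of 5 endothelial markers 2 and of 5 macrophage markers 1. None of the 5 podocyte, 4 fibroblast, 4 T cell, 3 B cell and 5 adipocyte markers tested passed, nor did the 1 adrenal cortex marker tested. Summed levels of the endothelial markers were 94.0 to 144 CPM in KO and 133 to 160.4 CPM in WT. Those of the macrophage markers were 65.3 to 82.3 CPM in KO and 86.1 to 94.4 CPM in WT. The macrophage marker that fell was Csf1r, with means of 36.7 CPM in KO and 57.2 CPM in WT. The median log2 fold change of the 5 macrophage markers was 0.14. C1qa (0.14), C1qb (0.21) and Cd68 (0.65) lay above 0 and C1qc (−0.04) below it, and none of these passed the test.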
